A study of Homo sapiens with 2 samples.

Results

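Genes of endosomal sorting were examined in BE(2)C, an established human neuroblastoma line that carries extra copies of MYCN. Cells given siRNA (small interfering RNA) directed at MYCN, labelled MYCN2, were set against cells given non-targeting control siRNAs. RNA was taken 36 hours after transfection and measured on 1-colour Affymetrix arrays (Human Gene 2.0 ST), 1 array per group, so no value below has a replicate and no p-value is given. Both groups are the same established line and both were transfected, the siRNAs of the groups came from different suppliers, and the control array's title carries the word reanalysis without explanation. The level of MYCN was not analysed here, and the strength of its knockdown is therefore unknown in what follows.

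The genes were chosen by symbol alone: SNX, VPS, CHMP or RAB followed by a digit, without Rab-interacting genes, pseudogenes and hyphenated symbols. Of 90 probe sets with such symbols, 10 of Rab-interacting genes, 4 with hyphenated symbols and 2 of pseudogenes were left out. The remaining 74 probe sets stood for 71 of the 14812 named genes. They comprised 26 sorting nexins, 25 VPS genes outside ESCRT, 19 ESCRT genes and 1 Rab GTPase. Rabs fall under the naming rule, but RAB6D was the only Rab GTPase with a probe set named here, so Rab GTPases could not be compared with the other families. The other Rabs were not analysed here. This gene set was proposed with differences between these same arrays known, so the values below describe it and support nothing further.

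Endosomes sort membrane proteins that have been taken up from the cell surface. Sorting nexins bind phosphoinositide lipids through their PX domain and help form tubules that carry cargo back to the surface or the Golgi, together with the coat complexes retromer and retriever. ESCRT complexes instead bud cargo into vesicles inside the endosome, and the tethers CORVET and HOPS bring endosomes to fuse with each other and with lysosomes. In neurons and neuroendocrine cells these routes carry, among others, neurotrophin receptors and the membrane proteins of secretory granules.

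Each value is a log2 level made by the authors with RMA, a method that summarises the probes of a probe set on the log2 scale. The difference is the MYCN siRNA level minus the control siRNA level, and a fold is 2 raised to its size. A gene counted as measured when its mean over both arrays reached 4.58, the mean of the array medians. That kept 10307 genes, with a median difference of 0.01, and 67 of the 71 endosomal genes. The spread between probe sets of 1 gene was 0.31 (SD of the difference per probe set, 370 genes with at least 2 probe sets). This is the only yardstick these arrays give for a single gene, and it leaves out the spread between cultures. Over 46255 probe sets the Pearson correlation between the arrays was 0.986. Of 14 sympathoadrenal markers 11 were named here, and all 11 were measured, at 6.53 to 11.7 in the MYCN siRNA array and 6.47 to 11.7 in the control array. The differences of these 11 ran from −0.43 for ISL1 to 1.45 for DBH, with a median of 0.12. Of 28 markers of fibroblasts, glia, blood, endothelium and epithelium, 15 were named here and 10 measured. Their levels ran from 3.83 to 9.00 in the MYCN siRNA array and from 3.12 to 7.27 in the control array, with the highest value in both arrays from CD68, which also encodes a lysosomal membrane protein. The differences of these 15 markers ran from −1.17 for LUM to 1.74 for CD68, with S100B at 1.02 and CLDN4 at 0.99, and had a median of 0.00. Their part in the results was not tested. In RNA from a whole culture, fewer cells of a type and less RNA per cell cannot be told apart.

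Most endosomal sorting genes were slightly higher with MYCN siRNA. Of the 67 measured, 48 were higher, 18 lower and 1 identical, while 50.9% of all measured genes were higher. Their median difference was 0.26 (1.20-fold), against 0.01 for all measured genes. Without the level filter, 50 of 71 were higher and the median was 0.25. The differences were small for single genes: 27 of the 67 were higher by more than the probe set SD (21.5% of all measured genes) and 4 lower by more than it (18.0%). Only VPS4B was at least 2-fold higher (2.18% of all measured genes) and none was 2-fold lower (1.13%). At a threshold of 1.5-fold, 5 were higher (8.71%) and 1 was lower (5.69%).

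**Figure D1:**
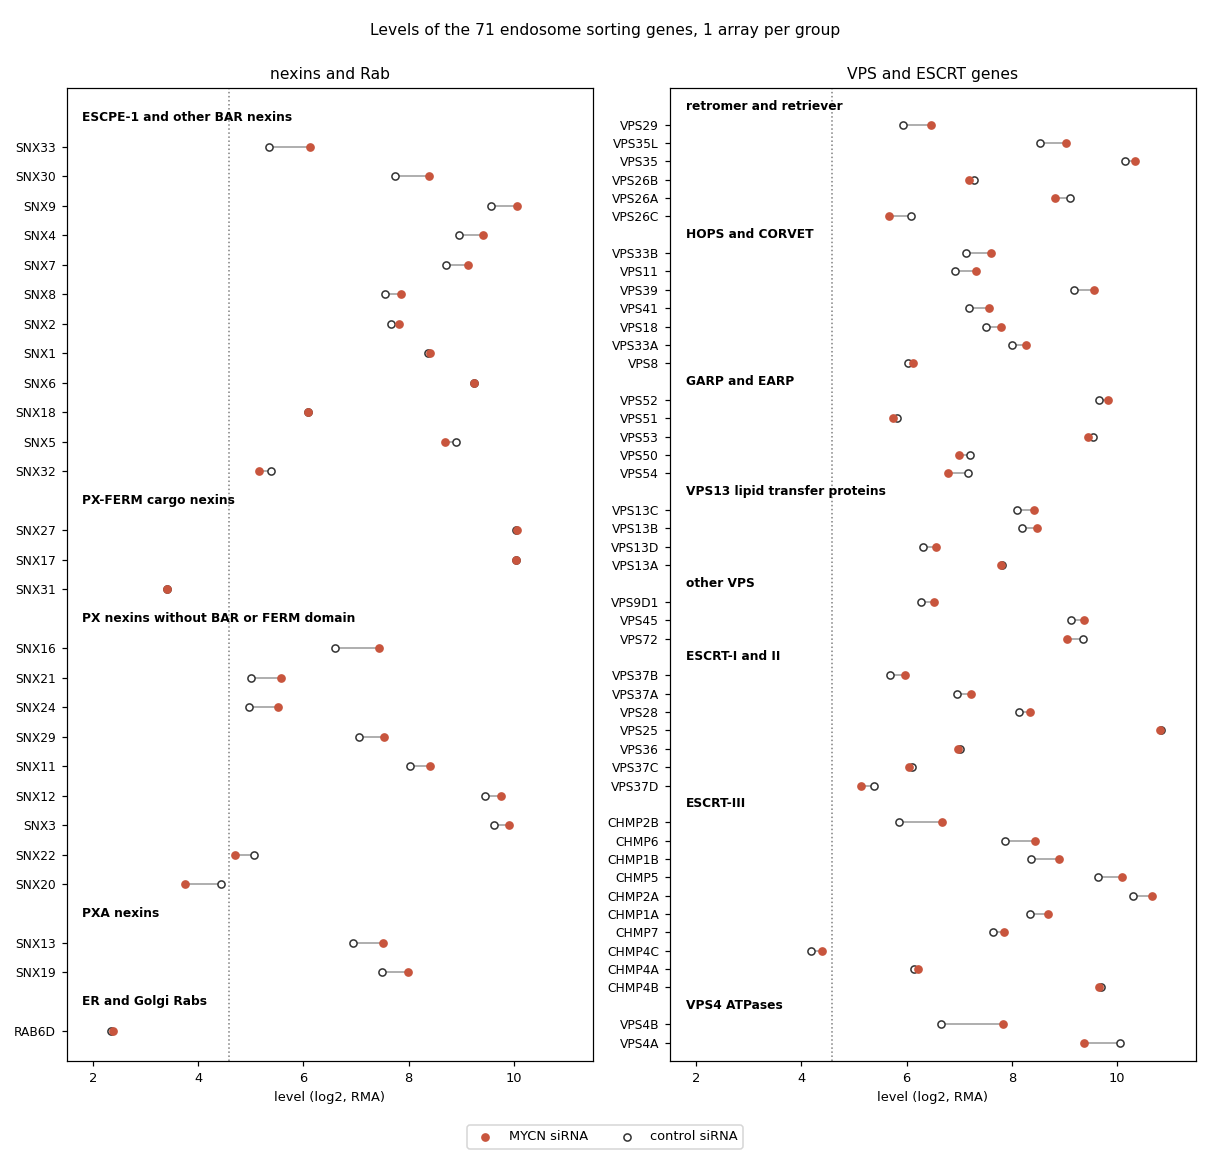
Log2 level of each of the 71 genes in the MYCN siRNA array (filled) and the control siRNA array (open), by class and, within a class, from the highest to the lowest difference. The dotted line is the level filter of 4.58. The longest bars are those of VPS4B, SNX16, CHMP2B and SNX33, with the filled point to the right, and of SNX20 and VPS4A, with the filled point to the left; SNX20 lies below the filter in both arrays.

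The share of higher genes was not even over levels. Of 9 endosomal genes with a mean level under 6, 4 were higher and the median difference was −0.07, against −0.05 for all 3447 measured genes at that level. At 6 to 7 the median was 0.08 over 10 genes, against 0.07 for all 2065. At 7 to 8 it was 0.35 over 16 genes, against 0.06 for all 1858, and at 8 to 9 it was 0.33 over 14, against 0.05 for all 1527. At 9 and over it was 0.18 over 18 genes, against 0.01 for all 1410. Below a level of 7 the medians of the endosomal genes thus lay near those of all genes of their level, and from 7 upward they were higher. Single genes below 7 still differed in both directions, such as CHMP2B at 0.81 and VPS26C at −0.41.

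**Figure D2:**
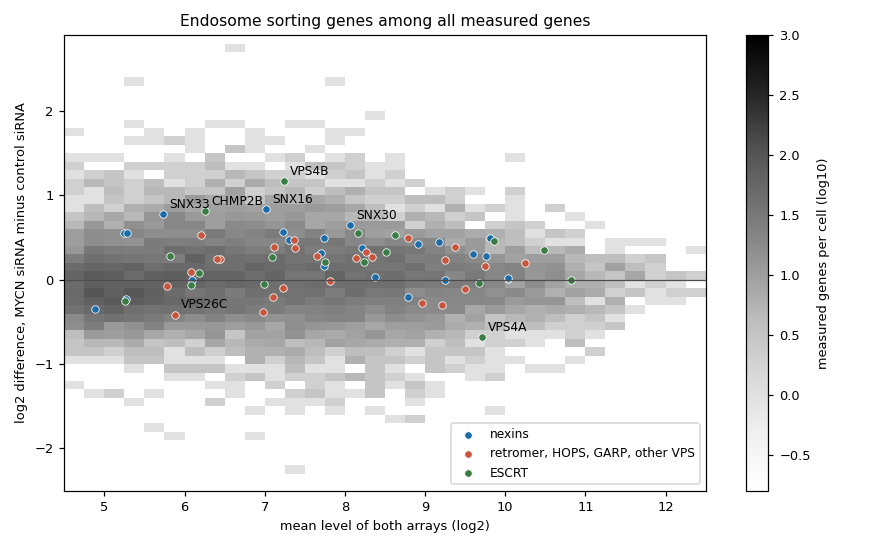
Mean log2 level of both arrays (x) against the log2 difference, MYCN siRNA minus control siRNA (y), for the 67 measured endosomal genes (coloured by family) over the density of all 10307 measured genes (grey, log10 scale). Most coloured points above a level of 7 lie over the zero line, with VPS4A the lowest and VPS4B the highest.

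VPS4A and VPS4B, the paralogous ATPases that take ESCRT-III filaments apart, were the lowest and the highest of the 67 measured genes by their difference. VPS4B was at 7.83 in the MYCN siRNA array and 6.66 in the control array, a difference of 1.17 (2.26-fold higher). VPS4A was at 9.37 in the MYCN siRNA array and 10.05 in the control array, a difference of −0.68 (1.60-fold lower). Both differences exceed the probe set SD of 0.31, each rests on 1 probe set, and both kept their direction and their side of 1.5-fold under every alternative processing run. Because levels of different probe sets are not on a common scale, these arrays do not give the sum of the paralogs.

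The stretches of 250 bases before the annotated starts of this pair are shown because the paralogs differed in opposite directions (RefSeq, GRCh38.p14). Capitals mark GGGCGG on either strand (CCGCCC as read here), the core of the GC box bound by SP1 family factors, which was looked up after the sequences were seen. The VPS4B stretch holds it 1 time and has a GC content of 66.4%, and the VPS4A stretch holds it 5 times and has a GC content of 74.8%. GGGCGG occurs in 65.7% of the windows of measured protein-coding genes, which run from 250 bases before to 50 bases after a start. That share counts presence and not copies, and a link between copies and the differences was not tested. Neither VPS4 window holds CACGTG, the E-box letters that MYCN and its partner MAX are known to bind.
VPS4B, chr18:63422477-63422726, minus strand: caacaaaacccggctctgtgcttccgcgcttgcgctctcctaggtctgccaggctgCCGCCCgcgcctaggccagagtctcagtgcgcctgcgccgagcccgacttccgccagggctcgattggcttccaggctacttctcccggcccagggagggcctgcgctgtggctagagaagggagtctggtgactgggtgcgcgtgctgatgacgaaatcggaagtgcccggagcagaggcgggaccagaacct
VPS4A, chr16:69311100-69311349, plus strand: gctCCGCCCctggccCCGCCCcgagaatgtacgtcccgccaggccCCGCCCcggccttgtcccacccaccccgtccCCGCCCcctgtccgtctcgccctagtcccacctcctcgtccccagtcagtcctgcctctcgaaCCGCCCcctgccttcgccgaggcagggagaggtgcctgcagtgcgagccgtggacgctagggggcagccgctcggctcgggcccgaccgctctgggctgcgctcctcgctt

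ESCRT-III, the CHMP proteins that polymerise into the filaments cutting off vesicle necks, was higher in 8 of its 9 measured genes. Their median difference was 0.35 (1.28-fold), and 6 of the 9 were higher by more than the probe set SD (21.5% of all measured genes). CHMP2B, in which mutations cause a form of frontotemporal dementia, was at 6.66 in the MYCN siRNA array and 5.85 in the control array (0.81, 1.76-fold higher). CHMP6, which links the upstream complexes to the filament, was at 8.44 in the MYCN siRNA array and 7.88 in the control array (0.56, 1.47-fold higher). CHMP1B was at 8.89 with MYCN siRNA and 8.36 with control siRNA, a difference of 0.53. The CHMP1 and CHMP2 paralogs lay on the same side within each pair. CHMP1A was at 0.33 beside CHMP1B at 0.53, and CHMP2A, at 10.66 with MYCN siRNA and 10.31 with control siRNA, was at 0.35 beside CHMP2B at 0.81. CHMP5 was at 0.46 and CHMP7, which also acts in sealing the nuclear envelope, at 0.21.

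Of the measured ESCRT-III genes, CHMP4A and CHMP4B, of the main filament subunits, had the smallest differences. CHMP4B was at 9.65 in the MYCN siRNA array and 9.69 in the control array, a difference of −0.04 that turned to 0.01 when each array was centred on its median. CHMP4A was at 0.08, and both lie within the probe set SD, as does CHMP7 at 0.21. CHMP4C, at 4.39 with MYCN siRNA and 4.19 with control siRNA, was below the level filter. The filament's main subunits were thus measured at nearly equal levels in both arrays, beside higher values of most other CHMP genes.

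The upstream complexes ESCRT-I and ESCRT-II, which gather ubiquitinated cargo, showed no common direction. Of their 7 genes named here, 3 were higher and 4 lower, with a median of −0.01 that was 0.04, 0.03 and 0.07 after median centring, loess and quantile normalization. None passed the probe set SD. VPS37B, an ESCRT-I subunit, was highest at 0.29, but its 2 probe sets gave 0.06 and 0.51. VPS37A was at 0.26, VPS37C at −0.06 and VPS37D lowest at −0.25, from a dim 5.14 with MYCN siRNA and 5.39 with control siRNA. VPS28, another ESCRT-I subunit, was at 0.21. The ESCRT-II subunits VPS25 and VPS36 were at −0.01 and −0.05. VPS25 was at 10.82 in the MYCN siRNA array and 10.83 in the control array, and its sign changed under the 3 alternative normalizations.

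Among the sorting nexins, 20 of 24 measured genes were higher (50.9% of all measured genes), 3 lower and 1 identical, with a median of 0.35 (1.27-fold). Of the 24, 13 were higher by more than the probe set SD (21.5% of all measured genes) and 1 was lower by more than it (18.0%). SNX16, an endosomal PX protein with a coiled coil, was at 7.44 in the MYCN siRNA array and 6.60 in the control array (0.84, 1.79-fold higher). SNX33, which couples a membrane-bending BAR domain to an SH3 domain and acts in endocytosis, was at 6.12 with MYCN siRNA and 5.34 with control siRNA (0.78, 1.72-fold higher). SNX30 was at 8.39 with MYCN siRNA and 7.74 with control siRNA (0.64, 1.56-fold higher). These were the nexins at least 1.5-fold higher among those measured (8.71% of all measured genes). SNX20 also differed by more than 1.5-fold, at 3.74 with MYCN siRNA and 4.43 with control siRNA, but it lay below the level filter and its value is uncertain.

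The BAR nexins are given by their known partner groups. SNX4, SNX7 and SNX30, which pair with each other and act in recycling and autophagy, were at 0.45, 0.42 and 0.64, all above the probe set SD. SNX9 and SNX33, related SH3 nexins of clathrin-dependent uptake, were at 0.49 and 0.78. Their relative SNX18 held an identical 6.09 in both arrays. The ESCPE-1 nexins, which form the tubule coat that returns the mannose phosphate receptor, were near 0: SNX1 was at 0.03, SNX2 at 0.16, SNX5 at −0.21 and SNX6 at 0.00. SNX32, the neuronal relative of SNX5 and SNX6, was at −0.23, from 5.16 with MYCN siRNA and 5.39 with control siRNA. None of these 5 passed the probe set SD. SNX8 was at 0.32.

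The nexins that pick cargo through a FERM domain differed by little. SNX27, whose PDZ domain recognises receptors for return to the surface, was at 10.05 in the MYCN siRNA array and 10.03 in the control array (0.02). SNX17, the cargo adaptor of retriever, was at 10.04 with MYCN siRNA and 10.03 with control siRNA (0.01). SNX31 held 3.41 in both arrays, below the level filter. Both measured FERM nexins were near 0, whereas the PX nexins without a BAR or FERM domain were higher in 7 of 8 (median 0.42).

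In this last class SNX3, the retromer adaptor for Wntless and the transferrin receptor, was at 0.28 and its closest relative SNX12 at 0.30. SNX11 was at 0.38. SNX29 was at 0.47 with 2 pseudogene copies on the array, SNX29P1 at 0.04 and SNX29P2 at 0.05, so its value may be mixed with theirs. SNX21 was at 5.57 with MYCN siRNA and 5.01 with control siRNA (0.56), and SNX24 at 5.52 with MYCN siRNA and 4.97 with control siRNA (0.55). Both are dim, and an offset of 16 on the linear scale reduced these differences to 0.40 and 0.39. SNX22 was lowest at −0.35, dim at 4.71 with MYCN siRNA and 5.05 with control siRNA. The PXA nexins SNX13, which also carries an RGS domain, and SNX19 were at 0.56 and 0.50; SNX13 was at 7.51 with MYCN siRNA and 6.95 with control siRNA.

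**Figure D3:**
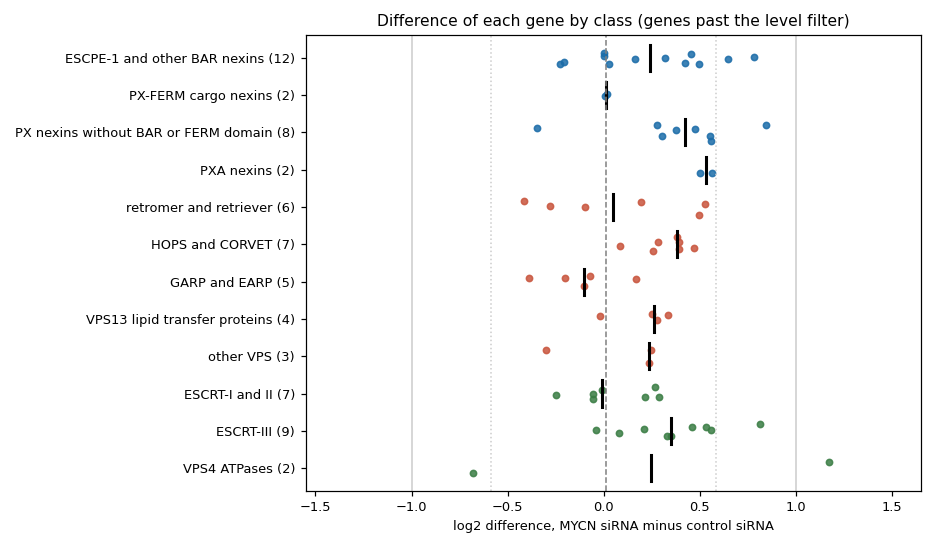
Log2 difference, MYCN siRNA minus control siRNA, of each measured gene by class; the number of genes is in parentheses and the black bar is the class median. The dashed line is the median of all measured genes (0.01), and the dotted and solid grey lines mark 1.5-fold and 2-fold. All 7 HOPS and CORVET genes lie right of the dashed line, 4 of 5 GARP and EARP genes lie left of it, and the VPS4 pair lies at both edges.

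The 25 VPS genes outside ESCRT were all measured, with 16 higher, 9 lower and a median of 0.24 (1.18-fold). None reached 1.5-fold in either direction, and the complexes differed from one another. All 7 HOPS and CORVET genes named here, VPS33B counted with them, were higher, with a median of 0.38 (1.30-fold). Of these, 4 were higher by more than the probe set SD (21.5% of all measured genes). All 7 were higher under every alternative processing run, with medians from 0.32 to 0.43. VPS33B, a SNARE-binding relative of the HOPS subunit VPS33A, was at 7.60 in the MYCN siRNA array and 7.13 in the control array (0.47). VPS33A was at 0.26. The HOPS subunits VPS39 and VPS41, which contact the vesicle membranes to be tethered, were at 0.39 and 0.38. The core subunits VPS11 and VPS18, shared by HOPS and CORVET, were at 0.39 and 0.28. VPS8, a subunit of CORVET and not of HOPS by their known composition, was lowest at 0.09, at 6.12 with MYCN siRNA and 6.04 with control siRNA.

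Retromer and retriever subunits went both ways, 3 higher and 3 lower with a median of 0.05. The median was 0.10 after median centring and 0.19 with the 70th percentile filter, which leaves out VPS26C. All 3 genes of the VPS26 family, the arrestin-like subunits, were lower, but only VPS26C by more than the probe set SD. VPS26C, of retriever, was at 5.68 in the MYCN siRNA array and 6.09 in the control array (−0.41, 1.33-fold lower). VPS26A was at 8.82 with MYCN siRNA and 9.10 with control siRNA (−0.28), and VPS26B was at −0.10. The scaffold subunits were higher, VPS35L by more than the probe set SD and VPS35 within it. VPS35L, of retriever, was at 9.04 with MYCN siRNA and 8.54 with control siRNA (0.50), and VPS35, of retromer, was at 10.34 with MYCN siRNA and 10.15 with control siRNA (0.19). VPS29, which serves in both complexes, was at 6.47 with MYCN siRNA and 5.94 with control siRNA (0.53, 1.44-fold higher). Subunits of the same complex therefore differed in sign: within retriever VPS26C stood at −0.41 and VPS35L at 0.50.

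GARP and EARP, which tether endosome-derived carriers at the Golgi and at recycling endosomes, were lower in 4 of 5 genes, with a median of −0.10 and a range of −0.15 to −0.05 under the alternatives. VPS54, the GARP subunit mutated in the wobbler mouse, was at 6.79 with MYCN siRNA and 7.17 with control siRNA (−0.39, 1.31-fold lower). VPS50, its counterpart in EARP, was at −0.20, VPS53 at −0.10 and VPS51 at −0.07. The 2 probe sets of VPS51 gave −0.15 and 0, the latter identical in both arrays. VPS52 was at 0.17, and its 2 probe sets gave 0.14 and 0.19. Of these genes VPS54 alone passed the probe set SD.

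The VPS13 genes encode bridge-like proteins that move lipids between organelles. VPS13C was at 0.33, VPS13B at 0.28 and VPS13D at 0.25. VPS13A was at 7.80 with MYCN siRNA and 7.82 with control siRNA (−0.02), turning to 0.03 after median centring. VPS45, a partner of endosomal SNAREs, was at 0.24. VPS9D1, a protein with the VPS9 domain found in Rab exchange factors, was at 0.25. VPS72, whose product belongs to chromatin remodelling complexes and not to endosomes despite its symbol, was at 9.06 with MYCN siRNA and 9.36 with control siRNA (−0.30). RAB6D, a relative of the Golgi Rab RAB6A, was at 2.37 with MYCN siRNA and 2.34 with control siRNA, below the level filter, so it is not shown to be above background and no value can be given for Rab GTPases as a family.

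Promoter windows of 300 bases were found in the RefSeq table for 51 of the 71 genes, 60 windows in all. CACGTG, which reads the same on both strands, was present in 9 of the 60 windows (15%), against 9.38% of the windows of measured protein-coding genes and 7.26% of all 35116 windows. The 8 genes that hold it were CHMP4A, SNX8, VPS8, VPS11, VPS26C, VPS36, VPS37B and VPS50. Of these, 5 were higher and 3 lower, from −0.41 to 0.39 with a median of 0.08. Of the 43 genes whose windows lack it, 32 were higher and 10 lower, with a median of 0.28. RAB6D, which lay below the level filter, is counted among the higher ones. Over all measured genes 50.9% were higher, and they were not split by this motif. A link between CACGTG and the differences was not tested. The longer TCACGTGA, letters that the lysosomal regulator TFEB is also known to bind and that always contain CACGTG, was present in the windows of 3 genes. It occurred in 1.70% of the windows of measured protein-coding genes. The 30 bases around it are shown for these 3 genes with CACGTG in capitals (RefSeq, GRCh38.p14), since they went different ways: VPS11 was at 0.39, CHMP4A at 0.08 and VPS26C at −0.41. A match is a description of letters, and binding was not measured here.
VPS11, chr11:119067772-119067801, plus strand: gctggctcagctCACGTGacaaagctcccg
CHMP4A, chr14:24213585-24213614, minus strand: ggtggcttgggtCACGTGacaccggtggtc
VPS26C, chr21:37267398-37267427, minus strand: ccgctgcgaggtCACGTGagccactgccgg

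Partner genes of the same routes, from lists of 142 symbols outside the naming rule, were also mostly higher. Of the 96 named here 89 were measured. Of these 72 were higher and 17 lower, with a median of 0.21. Past 1.5-fold there were 10 higher genes (8.71% of all measured genes) and 1 lower gene (5.69%). The count of higher genes lay near the share over all genes, and the count of lower genes lay under it. All 10 measured ESCRT partners were higher (median 0.20), from HGS, which recognises ubiquitinated cargo, at 0.02 to its partner STAM2 at 0.58. All 6 measured sorting receptors were higher (median 0.78, 1.71-fold), the largest median of the 8 partner lists. LRP10 was at 7.83 in the MYCN siRNA array and 6.68 in the control array (1.15, 2.22-fold higher). LRP1, SORCS2 and IGF2R, the last being the large mannose phosphate receptor that ESCPE-1 returns to the Golgi, were at 0.84, 0.79 and 0.77, and SORCS1 was lowest of these at 0.39. A seventh receptor, SORCS3, was at 2.71 with MYCN siRNA and 3.24 with control siRNA, below the level filter. The difference of 0.77 for IGF2R stands beside differences of −0.23 to 0.16 for the ESCPE-1 nexins and SNX32.

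The 16 measured genes of the WASH and Commander complexes, which work with retromer and retriever, were higher in 13 cases (median 0.21). WASHC3 was at 6.02 with MYCN siRNA and a dim 4.90 with control siRNA (1.12), and COMMD9 was lowest at −0.16. All 6 measured genes in the list of phosphoinositide enzymes and their partners were higher (median 0.19). They ran from VAC14 at 0.02 to MTM1, myotubularin, at 6.30 with MYCN siRNA and a dim 4.91 with control siRNA (1.39). Of 10 endosomal SNAREs 8 were higher (median 0.33), from VTI1B at −0.27 to STX8, syntaxin 8, at 0.87. The dim control values of WASHC3 and MTM1 make their folds uncertain.

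Regulators of Rab GTPases could be described although the Rabs could not. Of 18 measured Rab exchange factors and GTPase-activating proteins 13 were higher (median 0.13), from RIN2 at −0.69, dim at 4.62 with MYCN siRNA and 5.31 with control siRNA, to MON1B, which activates the late endosomal Rab, at 0.48. Of 20 Rab effectors and tethers 15 were higher (median 0.21). RPH3A, rabphilin, an effector of secretory vesicle Rabs, was at 8.65 with MYCN siRNA and 7.62 with control siRNA (1.02, 2.03-fold higher). GCC2, a Golgi tether, was at 0.97, RAB11FIP2, an effector of recycling, at 0.62, and RILPL1 was lowest at −0.40. The 3 measured genes in the list for Rab prenylation and recycling were near 0, with CHML at −0.22, GDI2 at −0.01 and RABIF at 0.07.

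**Figure D4:**
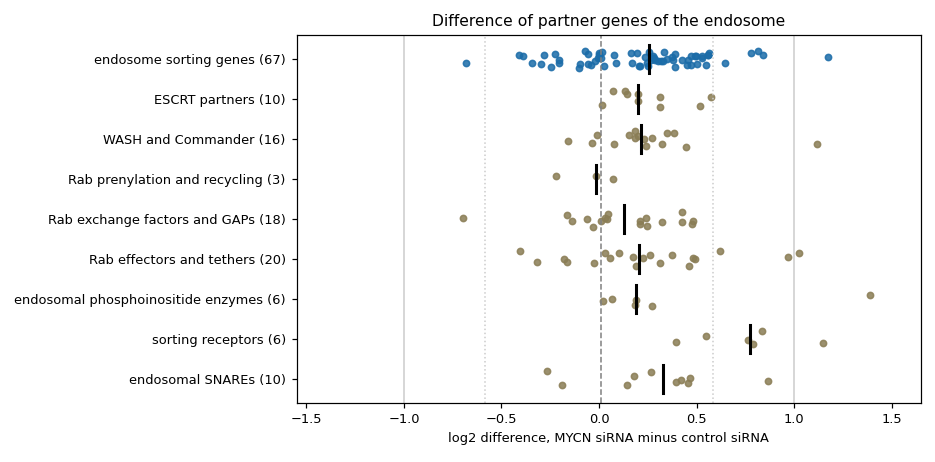
Log2 difference, MYCN siRNA minus control siRNA, of the 67 measured endosomal sorting genes and of the measured genes in 8 partner lists; counts are in parentheses and black bars are medians. The dashed line is the median of all measured genes (0.01), and dotted and solid grey lines mark 1.5-fold and 2-fold. The 6 sorting receptors have the highest median, 0.78, with points that overlap those of other lists, and the 3 genes in the list for Rab prenylation and recycling lie around 0.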

How the data were processed

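RNA of 2 BE(2)C cultures was measured, 100 ng per array. The deposited values are on a log2 scale; the authors used RMA, as the submitters' processing notes state, and its settings are not given here. Values ran from 0.85 to 13.5, with medians of 4.55 (MYCN siRNA) and 4.60 (control siRNA), so a shift in total RNA per cell would not show. Of 46255 probe sets, 15835 had 1 gene symbol, none had several, and 30420 are unnamed here; all 15835 identifiers matched RefSeq (GRCh38.p14). Where a gene had several probe sets, their mean was taken. No test was possible with 1 array per group. The named genes were the 10 highest and 10 lowest measured members, the extremes of each class, the 5 with the highest signal, and members whose probe sets differed by 0.5 or more (none did); values of other members were added. The members and lists were chosen with earlier results of these data known. Alternatives were median centring, quantile and loess normalization (span 0.3), the brightest probe set, other filters and an offset of 16. Python 3.11.15, pandas 2.3.3 and statsmodels 0.14.6 were used, and scripts were tested on simulated data.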

Additional observations from a re-analysis of the deposited data

How the results depend on the processing

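No paired analysis was possible because each group holds 1 array, and no replicate could be left out. Of 72 recomputed counts and medians of the gene set, 70 stayed within 1.5 times the count or within the probe set SD of 0.31. The count of genes at least 1.5-fold higher was 9 in place of 5 when each array was centred on its median. SNX13, CHMP6, SNX21 and SNX24 lie just under that threshold. With the 70th percentile filter, which leaves out the dim SNX33, this count was 4. Centring raises every difference alike: 57.2% of all measured genes were then higher, with a median of 0.06, against 50.9% and 0.01 as deposited. The count of genes at least 1.5-fold lower was 2 in place of 1 with no filter, which admits SNX20. The median over all endosomal genes ran from 0.23 to 0.31, that of the nexins from 0.31 to 0.40, that of the VPS genes from 0.20 to 0.29 and that of ESCRT genes from 0.20 to 0.29. A median of the Rab GTPases could not be given, since RAB6D lay below the filter. Each of the 175 recomputed differences of named genes moved by less than the probe set SD; the sign changed for CHMP4B, VPS13A and VPS25. Dim genes are limited by signal over background, which the deposited values do not give.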

Other observations

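Of the transcripts left out by their hyphenated names, VPS9D1-AS1, an antisense long non-coding RNA next to VPS9D1, was at 5.97 in the MYCN siRNA array and 7.33 in the control array (−1.36, 2.56-fold lower), while VPS9D1 was at 0.25. VPS13A-AS1 was at 5.29 with MYCN siRNA and 5.95 with control siRNA (−0.65), while VPS13A was at −0.02. RAB30-DT was at 0.21, and RAB11B-AS1 was dim at 4.34 with MYCN siRNA and 3.62 with control siRNA.

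Exactly equal values in both arrays were found for 1859 of 46255 probe sets (4.02%), 446 of them named. SNX18, SNX31 and 1 of the 2 probe sets of VPS51 were among them, and the cause was not tested.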
